A study of Homo sapiens with 4 samples.

Results

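Keratin, desmosome, cornified envelope and cell junction genes were examined in 4 RNA-seq libraries of human hepatocellular carcinoma cell lines. The genes were chosen by symbol with earlier results of these data known, so their shares beside those of all genes are descriptive. All 44 of them were among the 25343 symbols measured in each library. The libraries were an SCD1 knockdown (gene symbol SCD) and a non-target control of Huh7, and the same pair of PLC/PRF/5. Cells of all 4 groups had been transduced with lentivirus and kept under puromycin selection. The knockdown groups carried a single short hairpin RNA, shSCD1#13, and the controls a vector with no target (NTC). Each group was 1 library of stably transduced cells, so a difference within a line has no replicate check. Values are TPM, a relative abundance scaled by transcript length so that genes can be compared, and the sequencing depth behind them is unknown. SCD, the stearoyl-CoA desaturase that was targeted, stood at 137 TPM in the Huh7 knockdown and 1755 TPM in the Huh7 control, and at 178 TPM in the PLC/PRF/5 knockdown and 1111 TPM in the PLC/PRF/5 control.

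Keratins are the intermediate filament proteins of epithelial cells and assemble as pairs of a type I and a type II chain. Hepatocytes are known for the simple pair KRT8 and KRT18, whereas KRT7 and KRT19 mark bile duct cells. Desmosomes hold neighbouring cells together: desmogleins and desmocollins span the membrane, plakoglobin and plakophilins bind their tails, and desmoplakin ties them to keratin filaments. Adherens junctions are built on classical cadherins and catenins. Tight junctions seal the space between cells with claudins and with the MARVEL-domain proteins occludin, tricellulin and MARVELD3.

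Promoter sequences are shown for 6 of these genes because the results turn on them: SCEL and CLDN4 were among the genes with the largest knockdown differences in PLC/PRF/5 and Huh7, CLDN2 had the lowest difference in Huh7, and OCLN, MARVELD2 and CGN, all of the tight junction, were higher in both knockdown libraries. They come from RefSeq on GRCh38.p14, a later build than the hg19 named in the submitters' processing notes, and each runs from 250 bases before to 50 bases after the gene's start, on the plus strand. Capitals mark 4 motifs searched on both strands: the AP-1 motif TGANTCA, the CRE motif TGACGTCA, the E-box CACCTG or CAGGTG, and the Grainyhead motif AACCNGTT or AACNGGTT.
SCEL (chr13:77535456-77535755): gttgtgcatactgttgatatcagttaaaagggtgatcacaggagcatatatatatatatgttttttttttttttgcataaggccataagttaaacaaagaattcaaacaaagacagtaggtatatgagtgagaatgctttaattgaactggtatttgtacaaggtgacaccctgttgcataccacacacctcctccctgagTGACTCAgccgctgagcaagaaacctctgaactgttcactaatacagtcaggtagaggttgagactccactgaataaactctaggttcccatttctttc
CLDN4 (chr7:73830746-73831045): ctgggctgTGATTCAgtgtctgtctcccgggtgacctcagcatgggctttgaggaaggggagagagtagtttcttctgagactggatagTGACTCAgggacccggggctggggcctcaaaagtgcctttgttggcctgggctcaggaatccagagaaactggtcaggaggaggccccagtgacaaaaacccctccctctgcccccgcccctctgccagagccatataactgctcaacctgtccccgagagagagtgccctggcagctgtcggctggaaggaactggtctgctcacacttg
CLDN2 (chrX:106899914-106900213): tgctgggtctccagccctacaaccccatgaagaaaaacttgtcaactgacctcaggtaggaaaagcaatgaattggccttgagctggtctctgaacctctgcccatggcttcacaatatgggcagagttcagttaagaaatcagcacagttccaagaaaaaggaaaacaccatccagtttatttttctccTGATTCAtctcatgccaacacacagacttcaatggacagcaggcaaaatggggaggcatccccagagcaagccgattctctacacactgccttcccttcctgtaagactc
OCLN (chr5:69492297-69492596): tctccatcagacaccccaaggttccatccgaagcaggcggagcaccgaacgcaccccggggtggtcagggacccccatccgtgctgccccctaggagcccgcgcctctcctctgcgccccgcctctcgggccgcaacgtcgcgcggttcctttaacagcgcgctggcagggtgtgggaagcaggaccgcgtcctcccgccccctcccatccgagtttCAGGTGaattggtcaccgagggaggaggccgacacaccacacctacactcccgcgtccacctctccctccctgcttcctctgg
MARVELD2 (chr5:69414866-69415165): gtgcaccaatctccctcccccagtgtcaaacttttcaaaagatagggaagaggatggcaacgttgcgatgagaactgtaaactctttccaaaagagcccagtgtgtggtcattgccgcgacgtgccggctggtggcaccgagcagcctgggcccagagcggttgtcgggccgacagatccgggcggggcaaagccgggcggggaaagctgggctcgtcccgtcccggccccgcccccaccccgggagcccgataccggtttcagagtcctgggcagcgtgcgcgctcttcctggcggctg
CGN (chr1:151511137-151511436): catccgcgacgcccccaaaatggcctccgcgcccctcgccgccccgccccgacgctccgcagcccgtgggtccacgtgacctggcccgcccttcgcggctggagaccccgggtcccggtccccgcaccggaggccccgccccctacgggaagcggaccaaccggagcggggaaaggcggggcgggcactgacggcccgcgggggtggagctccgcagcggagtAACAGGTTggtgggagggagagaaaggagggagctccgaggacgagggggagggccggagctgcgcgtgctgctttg

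The SCEL promoter held the AP-1 letters 49 bases before the start, and the CLDN4 promoter held them 242 and 161 bases before it. In CLDN2 they lay 60 bases before the start, in OCLN an E-box lay 33 bases before it, and in CGN a Grainyhead motif lay 27 bases before it. MARVELD2 held none of the 4 motifs in this window. Promoters of 26 of the 44 genes were matched by symbol. Of these, 5 held AP-1 (SCEL, IVL, PERP, CLDN2 and CLDN4), 7 an E-box, 1 the Grainyhead motif and 0 a CRE. Among 15544 promoters of genes in the files, the shares were 6.2% for AP-1, 19.9% for the E-box, 1.62% for Grainyhead and 2.51% for the CRE. A match describes these letters only, and the genes with AP-1 letters differed in both directions: SCEL and CLDN4 were higher in a knockdown library and CLDN2 was lower. OCLN and MARVELD2 are next to each other among the protein-coding genes of chromosome 5.

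In both lines the epithelial genes were mostly higher in the knockdown library. In such bulk samples, fewer cells with a transcript and less of it per cell cannot be told apart. A gene was considered in a line when it reached 1 TPM in at least 1 library of the pair, and its difference was taken as log2((knockdown TPM + 1)/(control TPM + 1)), which understates the change of low genes. In Huh7, 29 of 32 genes considered had a difference above 0, where 60.2% of all genes did, and the median was 0.43 against 0.08 over all 13485 genes considered. In PLC/PRF/5, 23 of 31 were above 0, where 63.4% of all genes were, and the median was 0.24 against 0.10 over all 13057 genes considered. At least 2-fold higher on this scale were 7 genes in Huh7 (3.1% of all genes) and 3 in PLC/PRF/5 (1.72% of all genes). At least 2-fold lower were 1 gene in Huh7 (1.54% of all genes) and 2 in PLC/PRF/5 (1.11% of all genes). Rescaling each library by its median ratio shifted the median of all genes by -0.09 in Huh7 and -0.13 in PLC/PRF/5, to -0.01 and -0.03. The epithelial genes then had 26 values above 0 and a median of 0.33 in Huh7, and 22 and a median of 0.10 in PLC/PRF/5. At least 2-fold higher after rescaling were 5 in Huh7 (2.57% of all genes) and 2 in PLC/PRF/5 (1.18% of all genes). KRT19 and CLDN1 in Huh7 and KRT80 in PLC/PRF/5 fell under 2-fold.

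Among the 26 genes considered in both lines, 20 were above 0 in both (46.5% of all genes considered in both), 2 below 0 in both (22.4% of all genes) and 4 opposite (3735 of 12064 among all genes). The 20 were KRT8, KRT18, KRT19, KRT23, PPL, DSP, JUP, PKP2, PKP4, CTNNA1, CTNND1, CLDN1, CLDN4, OCLN, TJP1, F11R, CGN, MARVELD2, MARVELD3 and ESRP2. CLDN4 turned below 0 in PLC/PRF/5 on rescaling (log2 difference -0.12). The 2 lower in both were CLDN12 and TJP3. PPL was the 1 gene at least 2-fold higher in both lines, which 0.431% of all genes were. Another 6 genes were considered in Huh7 alone, 5 in PLC/PRF/5 alone, and 7 stayed under 1 TPM in every library (KRT7, KRT86, IVL, PKP1, DSC3, CLDN14 and GRHL2).

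**Figure D1:**
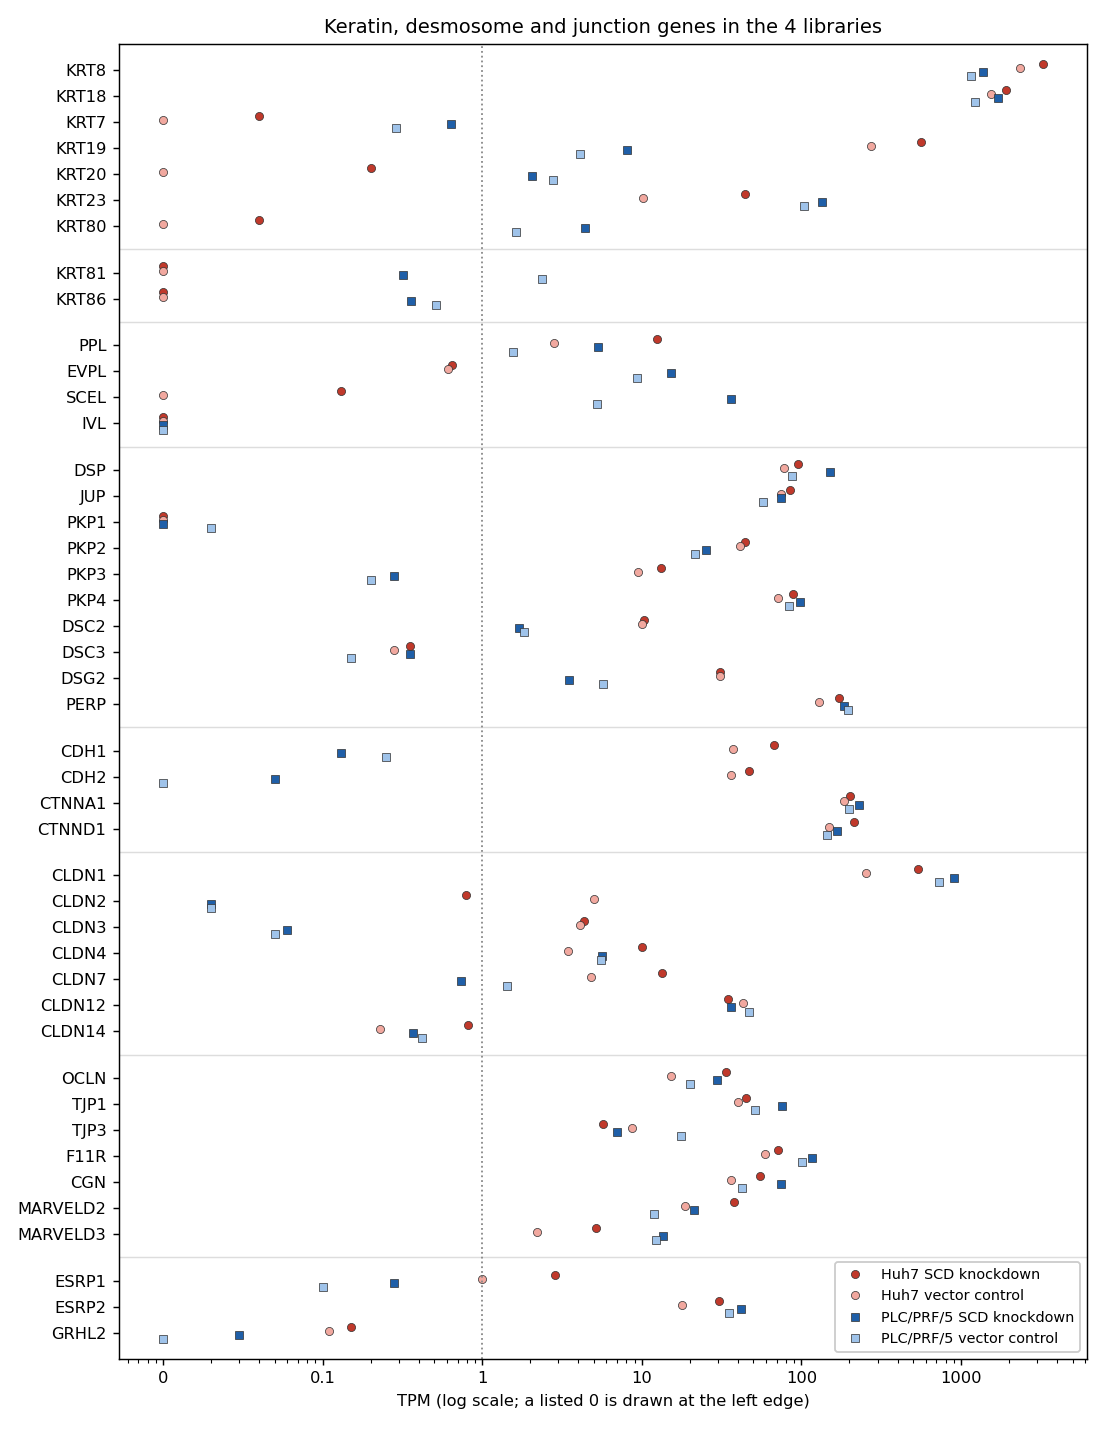
TPM of the 44 genes in each library, on a log scale, grouped by role from simple keratins at the top to epithelial regulators at the bottom; dark symbols are knockdown, pale symbols control, circles Huh7 and squares PLC/PRF/5, and the dotted line is 1 TPM. KRT8 and KRT18 lie furthest right in all 4 libraries, at 1159 TPM or more, while KRT19, CDH1 and CDH2 are split by cell line.

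Hepatocyte marker RNA was several times higher in Huh7 than in PLC/PRF/5. The 10 hepatocyte markers summed to 27548 TPM in the Huh7 knockdown and 30386 TPM in the Huh7 control, and to 3354 TPM in the PLC/PRF/5 knockdown and 4943 TPM in the PLC/PRF/5 control. In PLC/PRF/5 the transthyretin gene TTR was at 0.16 TPM in the knockdown and 0.41 TPM in the control. Of the squamous markers KRT1, KRT5, KRT10, KRT14, DSG3 and TP63, KRT1 and KRT14 were listed at 0 in all libraries, and the whole list summed to between 24.7 and 30.3 TPM, mostly from KRT10. The 4 endothelial markers summed to 3.40 TPM or less, with KDR listed at 0 throughout. The 5 leukocyte markers summed to 1022 TPM in the Huh7 knockdown and 1785 TPM in the Huh7 control, and to 2614 TPM and 1771 TPM in the PLC/PRF/5 knockdown and control, nearly all from LYZ, while PTPRC was at 0.99 TPM or less. The 6 fibroblast markers summed to 77.6 TPM in the Huh7 knockdown and 55.8 TPM in the Huh7 control, where LUM was at 60.0 and 10.8 TPM and COL1A2 at 9.63 and 30.9 TPM, and to 2.53 TPM in the PLC/PRF/5 knockdown and 3.47 TPM in the control. The 5 biliary markers summed to 312.7 TPM in the Huh7 knockdown and 260.9 TPM in the Huh7 control, and to 71.3 TPM and 61.0 TPM in the PLC/PRF/5 knockdown and control. The part of these marker levels in the keratin and junction differences was not tested.

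Keratin RNA was dominated by KRT8 and KRT18 in every library, and both were somewhat higher in the knockdown libraries. KRT8, the type II chain of simple epithelia, was at 3284 TPM in the Huh7 knockdown and 2347 TPM in the Huh7 control, and at 1372 TPM in the PLC/PRF/5 knockdown and 1159 TPM in the PLC/PRF/5 control. KRT18, its type I partner, was at 1909 TPM and 1548 TPM in the Huh7 knockdown and control, and at 1709.9 TPM and 1229 TPM in the PLC/PRF/5 knockdown and control. The log2 differences of KRT8 were 0.48 in Huh7 and 0.24 in PLC/PRF/5, and those of KRT18 were 0.30 and 0.48, so the larger difference lay with KRT8 in Huh7 and with KRT18 in PLC/PRF/5. The ratio of KRT8 to KRT18 in TPM was 1.72 in the Huh7 knockdown and 1.52 in the Huh7 control, and 0.802 in the PLC/PRF/5 knockdown and 0.943 in the PLC/PRF/5 control. Together the pair made up 89.5% and 93.2% of the RNA of the 9 keratins in the Huh7 knockdown and control, and 95.4% in both PLC/PRF/5 libraries. In the Huh7 knockdown KRT8 ranked 12 among all genes by TPM, and in the Huh7 control 37.

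KRT19 was the next keratin in Huh7 by level. This biliary type I keratin was at 564 TPM in the Huh7 knockdown and 274 TPM in the Huh7 control (log2 difference 1.04), and at 8.02 TPM in the PLC/PRF/5 knockdown and 4.11 TPM in the PLC/PRF/5 control (0.82). It was higher in both knockdown libraries by a like ratio, 2.06 and 1.95 times in TPM, at levels far apart. KRT19 made up 22.4% of type I keratin RNA in the Huh7 knockdown and 15.0% in the Huh7 control, against 0.433% and 0.307% in the PLC/PRF/5 knockdown and control. KRT7, the type II keratin of bile ducts, was at 0.04 TPM in the Huh7 knockdown and listed at 0 in the Huh7 control, and at 0.64 TPM and 0.29 TPM in the PLC/PRF/5 knockdown and control.

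KRT23, a type I keratin, had the highest difference of all 32 genes in Huh7. It was at 44.1 TPM in the Huh7 knockdown and 10.2 TPM in the Huh7 control (log2 difference 2.01). In PLC/PRF/5 it was at 134 TPM in the knockdown and 104 TPM in the control (0.36), so both PLC/PRF/5 libraries stood above both Huh7 libraries. The type II keratin KRT80 was at 4.40 TPM in the PLC/PRF/5 knockdown and 1.62 TPM in the PLC/PRF/5 control (1.04), and in Huh7 at 0.04 TPM in the knockdown and listed at 0 in the control. KRT20, the type I keratin known from intestinal epithelium, was at 2.05 TPM and 2.78 TPM in the PLC/PRF/5 knockdown and control, and at 0.20 TPM in the Huh7 knockdown and listed at 0 in the Huh7 control. KRT80, KRT7 and KRT20 were thus at 0.20 TPM or less in Huh7 and at 4.40 TPM or less in PLC/PRF/5.

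The hair keratins KRT81 and KRT86 were listed at 0 in both Huh7 libraries. KRT81 was at 0.32 TPM in the PLC/PRF/5 knockdown and 2.38 TPM in the PLC/PRF/5 control (log2 difference -1.36), and KRT86 at 0.36 TPM and 0.51 TPM. These neighbouring genes share sequence, with 43.2% of the 31-base words of the KRT81 transcript found in KRT86, so the way reads were divided between them makes both values uncertain. Of the KRT8 and KRT18 transcripts, 35.3% and 43.2% of words occur in another annotated gene, and 8.93% and 4.86% in a gene that the files list.

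**Figure D2:**
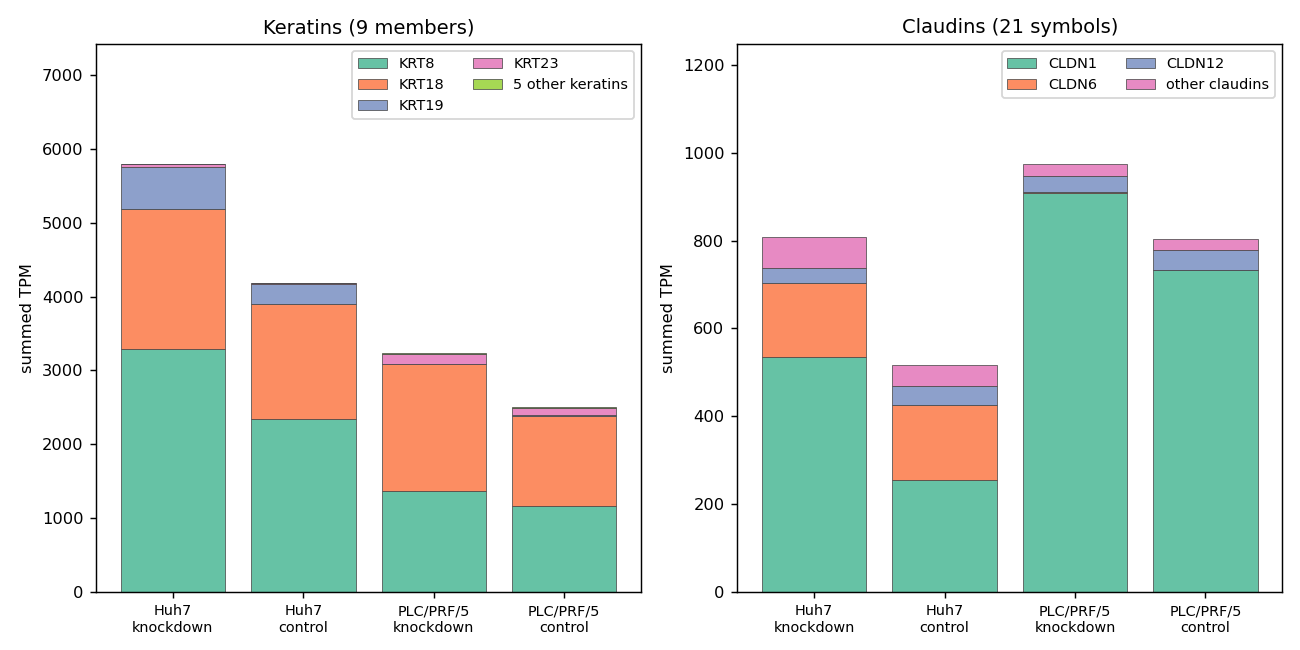
Summed TPM in each library, knockdown left of control in each line, of the 9 keratins and of all 21 claudin symbols in the files, with the main genes stacked. KRT8 and KRT18 fill most of each keratin bar, KRT19 is visible in Huh7, and CLDN1 fills 66.3% and 49.4% of the claudin bar in the Huh7 knockdown and control, and 93.3% and 91.2% in the PLC/PRF/5 knockdown and control.

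Of the plakin and envelope genes, PPL was higher in both knockdown libraries and SCEL in that of PLC/PRF/5. PPL encodes periplakin, which links keratin filaments to the cornified envelope and to desmosomes in squamous epithelia. It was at 12.4 TPM in the Huh7 knockdown and 2.82 TPM in the Huh7 control (log2 difference 1.81), and at 5.28 TPM in the PLC/PRF/5 knockdown and 1.56 TPM in the PLC/PRF/5 control (1.29). In TPM these are ratios of 4.4 and 3.38, and both knockdown libraries stood above both controls. EVPL, the related envoplakin, was at 15.3 TPM in the PLC/PRF/5 knockdown and 9.39 TPM in the control (0.65), and at 0.65 TPM and 0.61 TPM in Huh7.

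SCEL encodes sciellin, a precursor of the cornified envelope. It was at 36.3 TPM in the PLC/PRF/5 knockdown and 5.20 TPM in the PLC/PRF/5 control (log2 difference 2.59), the highest value of the 31 genes considered in that line. In Huh7 it was at 0.13 TPM in the knockdown and listed at 0 in the control. IVL, the envelope precursor involucrin, was listed at 0 in all 4 libraries. Of 17 other cornified envelope genes, 8 were also listed at 0 in every library, and the list summed to 4.79 TPM in the Huh7 knockdown and 6.74 TPM in the Huh7 control, and to 12.8 TPM and 14.3 TPM in the PLC/PRF/5 knockdown and control.

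No desmosome gene differed by 2-fold with the knockdown in either line, and differences were small in Huh7. In PLC/PRF/5, DSP (0.80) and DSG2 (-0.58) lay outside the 5th to 95th percentile of all genes, -0.51 to 0.71. In Huh7 all 8 genes considered were at or above 0, where 60.2% of all genes were above 0. Their median log2 difference was 0.23 and the highest value 0.43, and DSC2 and DSG2 turned below 0 on rescaling. In PLC/PRF/5 4 of 7 (57.1%) were above 0, where 63.4% of all genes were, with values from -0.58 to 0.80. DSP, which encodes desmoplakin, was at 94.9 TPM in the Huh7 knockdown and 78.0 TPM in the Huh7 control (0.28), and at 152 TPM in the PLC/PRF/5 knockdown and 87.1 TPM in the control (0.80). JUP, the plakoglobin gene, was at 84.4 TPM and 74.0 TPM in the Huh7 knockdown and control, and at 74.1 TPM and 57.6 TPM in PLC/PRF/5. For DSP and JUP alike, the knockdown library had the higher value in each line.

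The desmosomal cadherins were lower in PLC/PRF/5 than in Huh7, with little difference between the Huh7 arms. DSG2, desmoglein 2, was at 30.9 TPM in the Huh7 knockdown and 30.8 TPM in the Huh7 control, a difference that turned below 0 on rescaling, and at 3.48 TPM in the PLC/PRF/5 knockdown and 5.70 TPM in the PLC/PRF/5 control (log2 difference -0.58). DSC2, its desmocollin partner, was at 10.3 TPM and 10.0 TPM in the Huh7 knockdown and control, and at 1.70 TPM and 1.83 TPM in PLC/PRF/5, and DSC3 was at 0.35 TPM or less in all 4 libraries. The summed RNA of these 3 cadherins was 41.5 TPM in the Huh7 knockdown and 41.1 TPM in its control, and reached 5.53 TPM in the PLC/PRF/5 knockdown and 7.68 TPM in the control. DSP RNA was 2.29 and 1.90 times that sum in the Huh7 knockdown and control, and 27.5 and 11.3 times it in the PLC/PRF/5 knockdown and control.

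Among plakophilins, the armadillo proteins that cluster desmosomal cadherins, PKP2 and PKP3 differed by line more than by knockdown, and PKP4 did not. PKP2 was at 44.2 TPM in the Huh7 knockdown and 41.2 TPM in the Huh7 control, and at 25.2 TPM in the PLC/PRF/5 knockdown and 21.7 TPM in the control. PKP3 was at 13.1 TPM and 9.47 TPM in the Huh7 knockdown and control, and at 0.28 TPM and 0.20 TPM in PLC/PRF/5. PKP4, which also binds adherens junctions, was between 71.5 and 97.6 TPM in all libraries, and PKP1, the plakophilin of squamous tissue, was at 0.02 TPM or listed at 0. PERP, a tetraspan protein of desmosomes, was at 173 TPM and 128 TPM in the Huh7 knockdown and control (log2 difference 0.43), and at 185 TPM and 197 TPM in PLC/PRF/5 (-0.09).

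In the adherens junction, both classical cadherin genes were expressed in Huh7 and under 1 TPM in PLC/PRF/5. CDH1, E-cadherin, was at 67.1 TPM in the Huh7 knockdown and 37.3 TPM in the Huh7 control (log2 difference 0.83), and at 0.13 TPM in the PLC/PRF/5 knockdown and 0.25 TPM in the PLC/PRF/5 control. CDH2, N-cadherin, was at 47.2 TPM and 36.0 TPM in the Huh7 knockdown and control (0.38), and at 0.05 TPM in the PLC/PRF/5 knockdown and listed at 0 in the control. For the catenins CTNNA1 and CTNND1, which bind cadherin complexes, the line comparison did not pass. It did pass for CTNNB1, beta-catenin, a catenin outside the set. CTNNB1 was at 481 TPM and 555 TPM in the Huh7 knockdown and control, and at 259 TPM and 222 TPM in PLC/PRF/5. CTNNA1, alpha-catenin, was at 203 TPM and 185 TPM in the Huh7 knockdown and control and at 229.9 TPM and 198 TPM in PLC/PRF/5. CTNND1, p120-catenin, was at 214 TPM and 149.8 TPM in the Huh7 knockdown and control (0.51), and at 167 TPM and 144 TPM in PLC/PRF/5 (0.22).

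Summed cadherin RNA was also higher in Huh7. The 8 cadherin genes examined summed to 198 TPM in the Huh7 knockdown and 90.9 TPM in the Huh7 control, and to 13.3 TPM in the PLC/PRF/5 knockdown and 10.1 TPM in the PLC/PRF/5 control. Nearly all of the PLC/PRF/5 sum was CDH17, the liver-intestine cadherin, at 12.9 TPM in the knockdown and 9.78 TPM in the control. In Huh7, CDH17 was at 68.6 TPM in the knockdown and 13.9 TPM in the control (log2 difference 2.22), and CDH6 at 14.8 TPM and 3.56 TPM (1.80).

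Within Huh7, 4 of 6 claudin genes considered (66.7%) were higher in the knockdown and 2 lower, where 60.2% of all genes were higher. CLDN1, the main claudin of both lines, was at 536 TPM in the Huh7 knockdown and 256 TPM in the Huh7 control (log2 difference 1.07), and at 909 TPM in the PLC/PRF/5 knockdown and 732 TPM in the PLC/PRF/5 control (0.31). CLDN4, a sealing claudin, was at 10.0 TPM and 3.46 TPM in the Huh7 knockdown and control (1.31), and at 5.60 TPM and 5.57 TPM in PLC/PRF/5. CLDN7 was at 13.4 TPM and 4.83 TPM in the Huh7 knockdown and control (1.31), and at 0.74 TPM and 1.43 TPM in PLC/PRF/5 (-0.48). CLDN2, which forms cation pores, was the 1 gene at least 2-fold lower in Huh7, at 0.79 TPM in the knockdown and 5.05 TPM in the control (-1.76), and stood at 0.02 TPM in both PLC/PRF/5 libraries.

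The remaining claudins of the set were low or little different. CLDN12 was lower in both knockdown libraries, at 34.5 TPM and 43.0 TPM in the Huh7 knockdown and control (log2 difference -0.31) and at 36.4 TPM and 47.2 TPM in PLC/PRF/5 (-0.37). CLDN3 was at 4.31 TPM and 4.09 TPM in the Huh7 knockdown and control and at 0.06 TPM and 0.05 TPM in PLC/PRF/5, and its Huh7 difference turned below 0 on rescaling. CLDN14 was at 0.81 TPM or less throughout. CLDN6, an oncofetal claudin outside the set, was at 167 TPM and 171 TPM in the Huh7 knockdown and control and at 0.21 TPM and 0.05 TPM in PLC/PRF/5, so claudin RNA was spread over more genes in Huh7.

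RNA of the transmembrane MARVEL proteins of tight junctions was higher in both knockdown libraries, though that of MARVELD3 only slightly in PLC/PRF/5. OCLN, occludin, was at 33.7 TPM in the Huh7 knockdown and 15.2 TPM in the Huh7 control (log2 difference 1.10), and at 29.7 TPM in the PLC/PRF/5 knockdown and 20.0 TPM in the PLC/PRF/5 control (0.54). MARVELD2, the tricellulin gene, was at 37.5 TPM and 18.6 TPM in the Huh7 knockdown and control (0.98), and at 21.1 TPM and 11.9 TPM in PLC/PRF/5 (0.78). For both of these neighbouring genes, each knockdown library stood above each control. MARVELD3 was at 5.14 TPM and 2.21 TPM in the Huh7 knockdown and control (0.94), and at 13.6 TPM and 12.2 TPM in PLC/PRF/5 (0.14). Median-ratio rescaling brought its PLC/PRF/5 difference to 0.01.

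Scaffold genes of the tight junction split between CGN and TJP3. CGN, the cytoplasmic plaque protein cingulin, was at 54.8 TPM in the Huh7 knockdown and 36.3 TPM in the Huh7 control (log2 difference 0.58), and at 74.8 TPM in the PLC/PRF/5 knockdown and 42.7 TPM in the PLC/PRF/5 control (0.79). TJP3, the scaffold ZO-3, was at 5.72 TPM and 8.68 TPM in the Huh7 knockdown and control (-0.53), and at 6.95 TPM and 17.7 TPM in PLC/PRF/5 (-1.23), where it was 1 of the 2 genes at least 2-fold lower. Its relative TJP1, the scaffold ZO-1, was at 44.8 TPM and 40.3 TPM in the Huh7 knockdown and control (0.15), and at 75.1 TPM and 51.1 TPM in PLC/PRF/5 (0.54). F11R, the junctional adhesion molecule JAM-A, was at 71.6 TPM and 59.1 TPM in the Huh7 knockdown and control, and at 116 TPM and 101 TPM in PLC/PRF/5.

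Of the epithelial regulators, the splicing factor gene ESRP2 was higher in both knockdown libraries and ESRP1 in that of Huh7; both direct epithelial splice forms. ESRP2 was at 30.5 TPM in the Huh7 knockdown and 17.8 TPM in the Huh7 control (log2 difference 0.74), and at 41.7 TPM in the PLC/PRF/5 knockdown and 35.2 TPM in the control (0.24). ESRP1 was at 2.86 TPM and 1.00 TPM in the Huh7 knockdown and control (0.95), and under 1 TPM in PLC/PRF/5, at 0.28 TPM and 0.10 TPM. GRHL2, a Grainyhead-like factor that activates junction genes, was at 0.15 TPM or less in all 4 libraries.

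**Figure D3:**
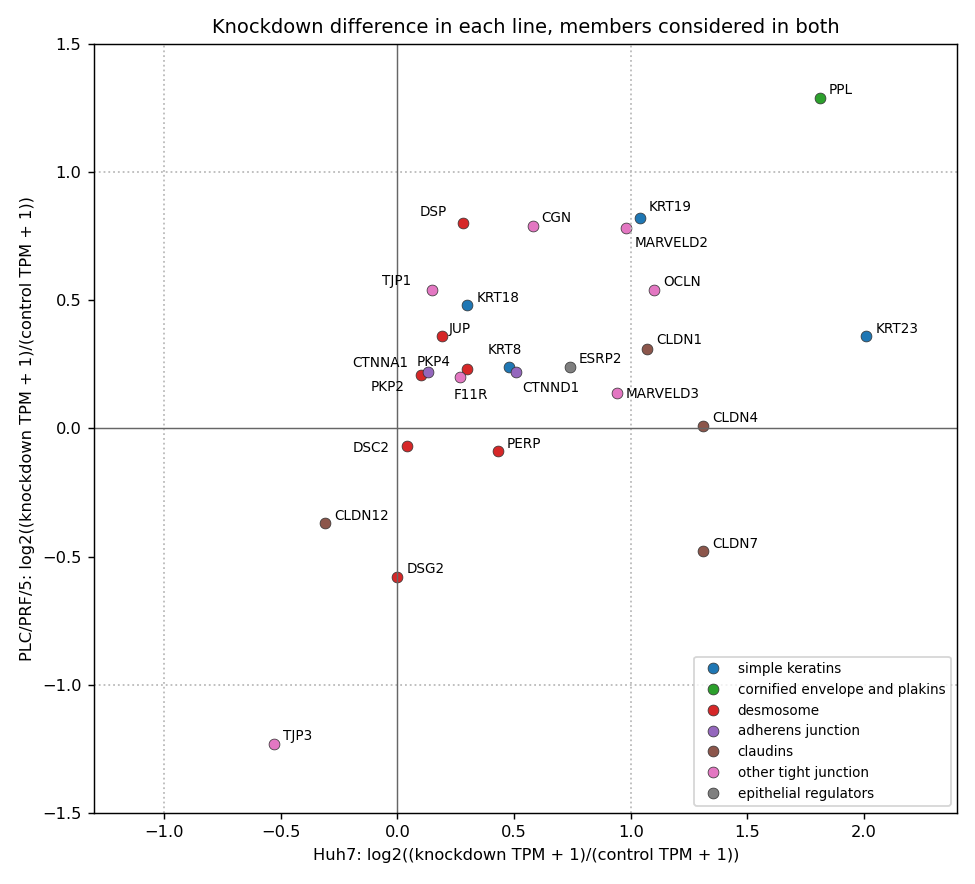
Log2 difference of knockdown against control in Huh7 (horizontal) and PLC/PRF/5 (vertical) for the 26 genes considered in both lines, coloured by role; dotted lines mark 2-fold. PPL is alone past 2-fold in both lines, 20 genes lie in the upper right, and TJP3 and CLDN12 lie below 0 in both.

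The difference common to the lines was tested with limma over 13813 genes at 1 TPM or more in at least 2 libraries. Cell line was a block, which left 1 residual degree of freedom. Each gene's spread was drawn toward that of other genes, with a prior of 3.712 degrees of freedom. A p-value or standard error thus reflects only in part how alike the lines moved in that gene. Of the 44 genes, 35 were fitted, and 0 passed in either direction after Benjamini-Hochberg adjustment at 0.05 (0% of all genes higher and 0.00724% lower). At an unadjusted p under 0.05 there were 14 higher (12.7% of all genes) and 2 lower (5.24% of all genes). The 9 genes not fitted were under 1 TPM in at least 3 libraries. KRT19 had a mean log2 difference of 0.93 ± 0.11 (SE) and PPL of 1.55 ± 0.21, each with a limma adjusted p of 0.129 and higher in 2 of 2 lines. MARVELD2 (0.88 ± 0.14, limma adjusted p = 0.143), CGN (0.69 ± 0.11, limma adjusted p = 0.147) and OCLN (0.82 ± 0.18, limma adjusted p = 0.179) followed. KRT8, KRT18, KRT23, DSP, JUP, PKP4, CTNND1, CLDN1 and ESRP2 made up the other higher genes at the unadjusted threshold, with means from 0.27 to 1.18, and TJP3 (-0.88 ± 0.23) and CLDN12 (-0.34 ± 0.11) were the lower ones. SCEL, at 1.38 ± 0.59, had the widest error of the 35.

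The lines were compared in the same fit, where the Huh7 minus PLC/PRF/5 coefficient passed the adjusted threshold for 13 genes higher in Huh7 (28.3% of all genes) and 10 lower in Huh7 (31.5% of all genes), and 12 of the 35 did not pass. The calls were 37.1% and 28.6% of the 35, so these genes differed between the lines about as often as genes at large, and the counts say nothing particular to them. At an unadjusted p under 0.05, 30.4% of all genes were higher and 34.4% lower in Huh7. Such p-values rest on the agreement of the arms and on spread pooled over genes, not on replicate cultures. Higher in Huh7 were KRT19 (log2 difference 5.86 ± 0.11, limma adjusted p = 1.54e-04), CDH1 (5.43 ± 0.28), CDH2 (5.36 ± 0.19), PKP3 (3.29 ± 0.20), DSG2 (2.54 ± 0.20), CLDN3 (2.30 ± 0.19), CLDN7 (2.16 ± 0.45), DSC2 (2.01 ± 0.18), ESRP1 (1.23 ± 0.26), KRT8 (1.14 ± 0.10), PPL, PKP2 and MARVELD2. Higher in Huh7 were thus every cadherin gene fitted, of both classical and desmosomal kind.

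Lower in Huh7 were the envelope genes SCEL (-3.84 ± 0.59, limma adjusted p = 0.00525) and EVPL (limma adjusted p = 0.000895), the keratins KRT23 (-2.41 ± 0.39), KRT80 (-1.88 ± 0.30) and KRT20 (-1.63 ± 0.24), MARVELD3 (-1.65 ± 0.25), CLDN1 (-1.14 ± 0.19), F11R (-0.72 ± 0.09), ESRP2 (-0.69 ± 0.16) and TJP1 (-0.54 ± 0.14). Among the genes that did not pass were KRT18 (0.25 ± 0.09), JUP (0.27 ± 0.10), DSP (-0.42 ± 0.15), CTNNA1 (-0.14 ± 0.08), CTNND1 (0.21 ± 0.11), OCLN (-0.10 ± 0.18) and CGN (-0.34 ± 0.11). A p that misses the threshold does not show that the lines were alike in these genes.

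**Figure D4:**
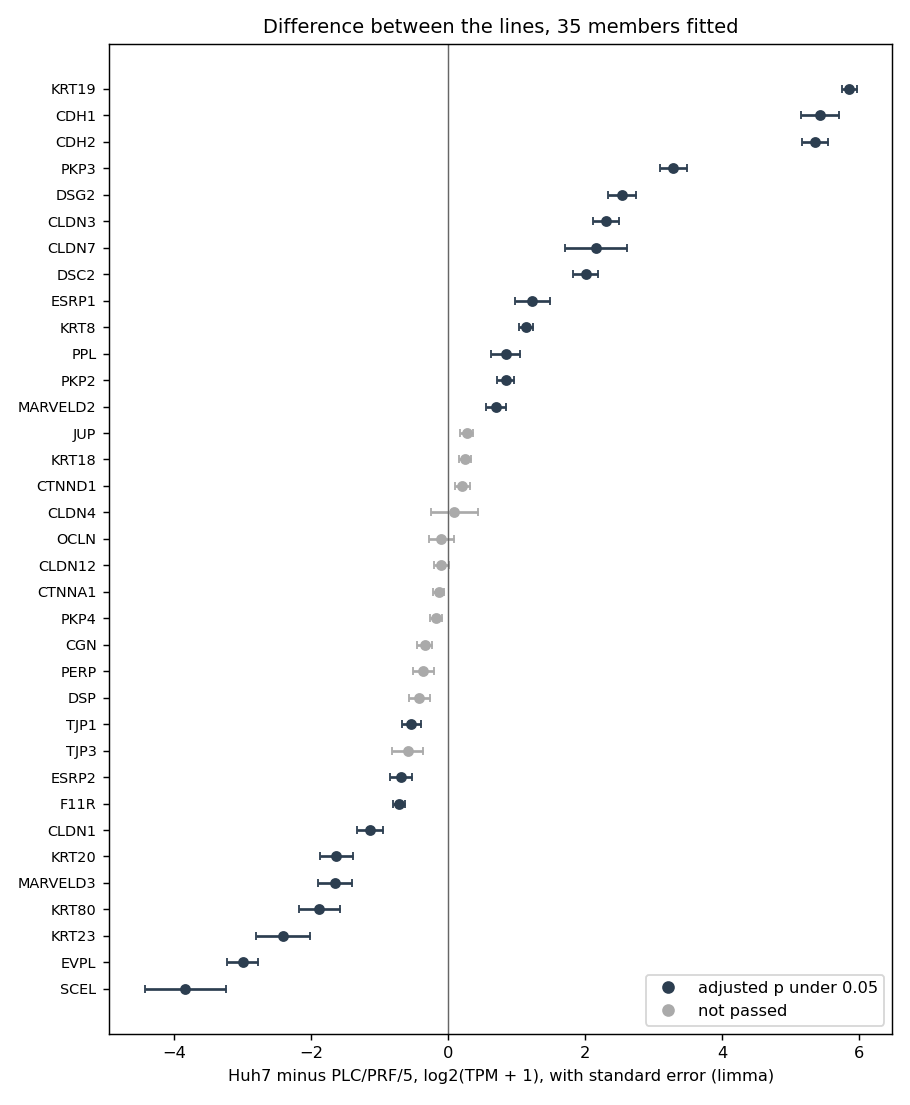
Difference between the lines, Huh7 minus PLC/PRF/5, in log2(TPM + 1) for the 35 genes fitted, with standard errors from limma; dark points passed at an adjusted p under 0.05. KRT19, CDH1 and CDH2 lie above 5 and SCEL lies at -3.84.

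A wider set of 151 keratin, junction and epithelial regulator genes outside the 44 was examined in the same way. These lists too were chosen with earlier results of these data known, so their shares are no independent check of the 44. In Huh7, 44 of 62 genes considered were above 0 with a median log2 difference of 0.38, and 12 (19.4%) were at least 2-fold higher and 0 lower, where 60.2% of all genes were above 0 and 3.1% at least 2-fold higher. In PLC/PRF/5, 45 of 59 were above 0 with a median of 0.22, and 1 (1.69%) was at least 2-fold higher and 0 lower, where 63.4% of all genes were above 0 and 1.72% at least 2-fold higher. No wider gene passed the limma fit after adjustment, and at an unadjusted p under 0.05 there were 19 higher (29.7%, against 12.7% of all genes) and 1 lower (1.56%, against 5.24% of all genes) of 64 fitted. The list of other cornified envelope genes had medians below 0, at -0.33 in Huh7 and -0.16 in PLC/PRF/5.

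Of the other desmosome genes and those of hemidesmosomes, which fix epithelial cells to the basement membrane, 7 of 8 considered were above 0 in Huh7 (60.2% of all genes) and 7 of 7 in PLC/PRF/5 (63.4% of all genes). The exception was ITGA6, the integrin partner of ITGB4, at 70.0 TPM in the Huh7 knockdown and 91.0 TPM in the Huh7 control (log2 difference -0.37), and at 122 TPM and 81.4 TPM in the PLC/PRF/5 knockdown and control (0.58). ITGB4, the beta-4 integrin of hemidesmosomes, was the 1 wider gene at least 2-fold higher in PLC/PRF/5, at 34.0 TPM in the knockdown and 11.2 TPM in the control (log2 difference 1.52), and was at 1.72 TPM and 1.60 TPM in the Huh7 knockdown and control. LAMA3, a laminin chain of the basement membrane, was at 5.72 TPM and 0.64 TPM in the Huh7 knockdown and control (2.03), and at 23.2 TPM and 18.1 TPM in PLC/PRF/5 (0.34). DST, a plakin that binds keratin at hemidesmosomes, was at 51.7 TPM and 25.6 TPM in the Huh7 knockdown and control (0.98), and at 55.4 TPM and 32.5 TPM in PLC/PRF/5 (0.75).

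The list of epithelial and mesenchymal regulators and markers had the highest median of the wider lists in Huh7, at 1.25, with 7 of 11 genes at least 2-fold higher (3.1% of all genes), the mesenchymal VIM among them. Its median in PLC/PRF/5 was 0.08, with 0 of 12 at least 2-fold higher (1.72% of all genes). KLF4, a Kruppel-like factor of differentiating epithelia, was at 6.94 TPM in the Huh7 knockdown and 1.21 TPM in the Huh7 control (log2 difference 1.85), and at 53.6 TPM in the PLC/PRF/5 knockdown and 32.4 TPM in the control (0.71). KLF5 was at 171 TPM and 67.9 TPM in the Huh7 knockdown and control (1.32), and at 202 TPM and 139.6 TPM in PLC/PRF/5 (0.53). ELF3 (1.25), the surface adhesion gene EPCAM (1.37), the membrane protease gene ST14 (1.85) and its inhibitor gene SPINT1 (1.25) were also higher in the Huh7 knockdown. VIM, the intermediate filament of mesenchymal cells, was at 936 TPM in the Huh7 knockdown and 467 TPM in the Huh7 control (1.00), and at 0.27 TPM and 0.09 TPM in the PLC/PRF/5 knockdown and control. FN1, of the same list, was at 1151 TPM and 1439 TPM in the Huh7 knockdown and control (-0.32), and at 568 TPM and 348 TPM in PLC/PRF/5 (0.70).

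The E-cadherin repressor genes that reached 1 TPM, ZEB1, SNAI1 and TWIST2, gave no common direction. TWIST2 was at 2.29 TPM in the PLC/PRF/5 knockdown and 5.19 TPM in the control (-0.91), and was listed at 0 in Huh7. ZEB2, SNAI2 and TWIST1 stayed under 1 TPM in every library. ZEB1 was at 13.0 TPM in the Huh7 knockdown and 13.4 TPM in the Huh7 control, and at 7.18 TPM and 6.75 TPM in the PLC/PRF/5 knockdown and control. SNAI1 was at 7.23 TPM and 13.7 TPM in the Huh7 knockdown and control (log2 difference -0.84), and at 9.65 TPM and 6.90 TPM in PLC/PRF/5 (0.43). Among other keratins, 24 of 42 were listed at 0 in all libraries, and KRT17, a basal type I keratin, was at 1.27 TPM in the Huh7 knockdown and listed at 0 in the Huh7 control.

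**Figure D5:**
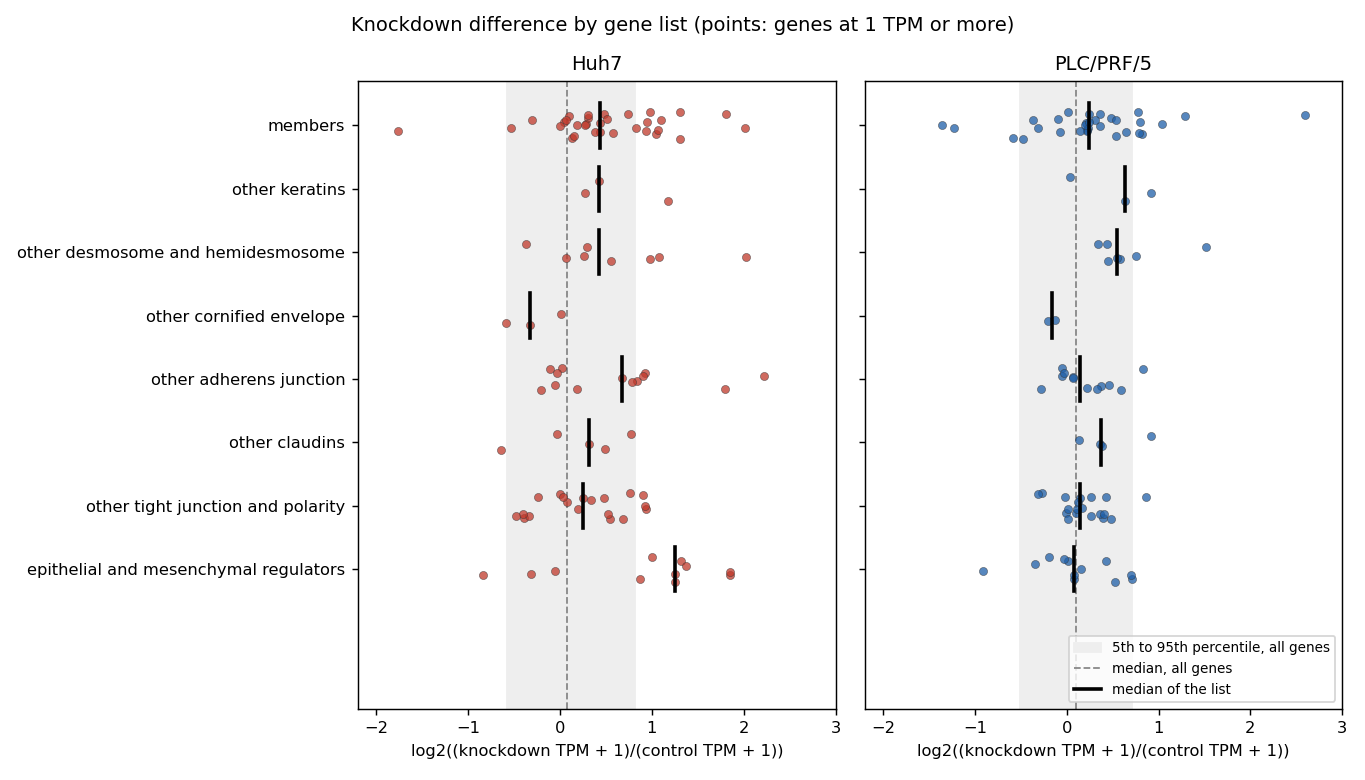
Log2 difference of knockdown against control in Huh7 and PLC/PRF/5 for the 44 genes (top row, members) and the wider lists; each point is a gene at 1 TPM or more in the pair, black bars are list medians, and grey spans the 5th to 95th percentile of all genes (-0.58 to 0.82 in Huh7 and -0.51 to 0.71 in PLC/PRF/5). Most list medians lie right of the dashed all-gene median, and the list of other cornified envelope genes lies left of it in both lines.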

How the data were processed

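RNA was taken with TRIzol and sequenced on Illumina libraries, per the labels' protocols. The authors deposited 1 table per library with TPM by gene symbol, per the file headers. The submitters' processing notes list cutadapt, RSEM 1.2.21 and hg19; the aligner, annotation and strand handling were not given in the sources used here. TPM fixes each library's total, so abundant transcripts move all others, and depth is unknown. Groups came from sample titles.

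From these values, log2(TPM + 1) differences were computed within each line, and limma 3.58.1 (R 4.3.3) was fitted with line and arm as terms and a variance trend on genes that reached 1 TPM in 2 or more libraries, with two-sided p-values adjusted by Benjamini-Hochberg over all fitted genes (threshold 0.05). The fit was tested on simulated data. Nothing says that cultures were separate, and with 1 library per group the p-values hold no measure of spread between cultures. The 44 genes and the wider lists were chosen with earlier results of these data known. Any of the 44 could be named, in full where a difference reached 2-fold, where the unadjusted knockdown p was under 0.05 with a mean of at least 0.5 in size, or where the line comparison passed; genes of the wider lists were named where they reached 2-fold in a line, except 1 that is not reported here, while DST, ITGA6, CLDN6, ZEB1 and SNAI1 were chosen after their values were seen. Shared 31-base words came from GENCODE transcripts of another build. Other settings tried were a pseudocount of 0.1 or 5, filtering at 5 TPM or not at all, median-ratio rescaling, no variance trend, and fits without the line or arm term. Python 3.11.15 and matplotlib 3.10.9 drew the plots.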

Additional observations from a re-analysis of the deposited data

Results flagged for a closer look

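Opposite directions in the lines were found for 4 of 26 genes considered in both, and for 3735 of 12064 among all genes. In the following genes the only library pair of Huh7 and that of PLC/PRF/5 lay on opposite sides of 0, and with 1 library per group the difference between the lines was not tested. CLDN7 had a log2 difference of knockdown against control of 1.31 in Huh7 and -0.48 in PLC/PRF/5. PERP had 0.43 in Huh7 and -0.09 in PLC/PRF/5. DSC2 had 0.04 in Huh7 and -0.07 in PLC/PRF/5, and its Huh7 value turned below 0 on median-ratio rescaling. The remaining gene, DSG2, had 0.00 in Huh7 after rounding and -0.58 in PLC/PRF/5.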

How the results depend on the processing

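Knockdown and control were paired by cell line in the fit. No paired analysis was possible because the labels carry no replicate numbers, beyond that block by line. No knockdown difference of the 44 genes passed after adjustment under any alternative run. With a pseudocount of 5, which shrinks differences of low genes, 4 genes were at least 2-fold higher in Huh7 (1.15% of all genes) and 0 lower. In PLC/PRF/5, 1 was then at least 2-fold higher (0.521% of all genes) and 0 lower. With a TPM filter of 5, 1 was 2-fold lower in PLC/PRF/5. For counts above 0, counts lower and counts by p-value, the shares of all genes under the alternatives were not taken. The median log2 difference was 0.28 in Huh7 without a filter and 0.10 in PLC/PRF/5 with median-ratio rescaling. At an unadjusted p under 0.05 in limma, 14 genes higher in knockdown became 7 without a filter, 9 with rescaling, 8 without the variance trend and 1 without the line term, and 2 lower became 1 without a filter and 0 without the line term; the cause was not tested. For the line difference, the 13 genes higher and 10 lower in Huh7 became 0 and 0 without a filter, where 25343 genes were fitted; without the arm term they became 11 and 7, with PPL (limma adjusted p = 0.393), MARVELD2 (0.234), ESRP2 (0.103), TJP1 (0.0991) and CLDN1 (0.0549) not passing, and TJP1 did not pass without the variance trend (0.052). The unadjusted count lower in Huh7 was 4 without a filter and 8 without the arm term, against 13. Reversed values were the log2 differences of CLDN4 in PLC/PRF/5 (-0.12) and of CLDN3 across lines (-0.01) on rescaling, KRT20 across lines (0.58) with a pseudocount of 0.1, and DSC2 across lines with a pseudocount of 5 (0.00). Of 587 values for single genes or for the share of all genes at least 2-fold higher, 532 kept their direction and side of the threshold or, where untested, moved little. Much of that was fixed in advance. Changing only the filter, the variance trend or the line or arm term leaves each gene's difference unchanged in this balanced design. No knockdown difference passed in the main fit, so few could change side. The count is thus no measure of how firm the results are. The limma adjusted p of KRT19 ranged from 0.1 to 1 over the alternatives. With 1 library per group and unknown depth, genes under 1 TPM cannot be read.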
